A study of Mus musculus with 12 samples.

Results

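Transcripts of 10 genes of the decision to enter the cell cycle were followed in mouse embryonic stem cells: the Myc family members Myc and Mycn, the D-type cyclins Ccnd1, Ccnd2 and Ccnd3, the E-type cyclins Ccne1 and Ccne2, and the cyclin-dependent kinase inhibitors Cdkn1b, Cdkn2a and Cdkn2b. They were chosen by gene symbol, and each had its own row in all 3 deposited tables, which list 19996 genes for the serum deletion and overexpression experiments and 19718 for the 2i experiment. The series asked what the forkhead factor Foxd3 does to gene expression, with 12 libraries of polyadenylated RNA in 6 groups of 2. In SL medium (KO-DMEM with 15% serum and leukemia inhibitory factor, on irradiated fibroblast feeders), Foxd3fl/fl;Cre-ER cells received 4-hydroxytamoxifen at 2 µM for 3 days, which activates the recombinase (SL deleted), or were left untreated (SL floxed). The same line was treated or left untreated in 2i medium (N2B27 with leukemia inhibitory factor, the MEK inhibitor PD0325901 at 0.4 µM and the GSK3 inhibitor CHIR99021 at 3 µM), giving the groups 2i labelled deleted and 2i floxed. A tetON Foxd3 line and LF2 wild-type cells (WT) both received doxycycline at 1 µg/µl for 3 days in 15% serum with leukemia inhibitory factor and without feeders. No group received 4-hydroxytamoxifen without the floxed allele, no tetON Foxd3 group went without doxycycline, and the 2i protocol names no feeders, so medium and feeders cannot be told apart. The labels used here state neither the number of clones, the promoter that drives Cre-ER nor the origin of the replicates, so p-values measure the spread between 2 samples a group, which may be technical.

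Myc and Mycn are bHLH transcription factors that pair with Max, and raise genes of ribosome production, nucleotide synthesis and growth. D-type cyclins bind Cdk4 and Cdk6, and E-type cyclins bind Cdk2, and these kinases inactivate the retinoblastoma proteins and so release the E2f factors that switch on S phase genes. Cdkn1b (p27) restrains cyclin E with Cdk2, Cdkn2b (p15) and the Ink4a product of Cdkn2a (p16) block Cdk4 and Cdk6, and the Arf product of Cdkn2a stabilises p53. Mouse embryonic stem cells are known for a short G1 phase, with cyclin E abundant and Cdk inhibitors low. In most cell types mitogen signalling through MEK and ERK raises Ccnd1 and Myc, and both are also known targets of the β-catenin pathway that GSK3 holds back.

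On GRCm38, Mycn (ENSMUSG00000037169) lies on chromosome 12 from 12936093 to 12941914 on the minus strand, and Myc (ENSMUSG00000022346) on chromosome 15 from 61985391 to 61990374 on the plus strand. Ccnd1 (ENSMUSG00000070348) spans 144929931 to 144939925 on chromosome 7, minus strand, and Ccnd3 (ENSMUSG00000034165) spans 47505051 to 47599691 on chromosome 17, plus strand. Cdkn2a (ENSMUSG00000044303, 89274471 to 89294653) and Cdkn2b (ENSMUSG00000073802, 89306299 to 89311039) are neighbours on chromosome 4, both on the minus strand.

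Depth of single libraries is unknown, because the tables give FPKM (fragments per kilobase of transcript per unit of mapped fragments) per library and reads only as group means. These mean reads, on the authors' scaling, summed to 24278898 in 2i labelled deleted and 27062508 in 2i floxed. The sums were 53193753 in SL deleted, 54096080 in SL floxed, 52789850 in tetON Foxd3 and 52911442 in WT. Between 11033 and 11919 genes per library reached 1 FPKM, and the 8 embryonic stem cell markers summed to between 2240 and 3769 FPKM, with 0 of them at 0 in any library. Foxd3 was at 1.72 ± 0.154 FPKM in SL deleted and 4.67 ± 0.200 in SL floxed libraries (SD, n = 2 each; log2 difference -1.06, limma adjusted p = 0.137), and at 51.6 ± 2.18 in tetON Foxd3 against 12.3 ± 2.52 in WT (SD, n = 2 each; 1.99, limma adjusted p = 0.0145). In 2i it did not bear out the labels (-0.09, limma adjusted p = 0.461), and the authors' deposited table lists it 1.7-fold higher in the libraries labelled deleted, so the 2i groups are named by their labels and directions drawn from them rest on those labels. The summed level of 22 fibroblast marker genes was 1029 and 896 FPKM in SL deleted, 674 and 700 in SL floxed, 617 to 627 in 2i labelled deleted, 536 to 544 in 2i floxed, and 248 to 310 in the doxycycline groups. The fibroblast gene Lum was at 0 in every 2i and doxycycline library. In SL it was near the floor, at 0.0623 to 0.0915 FPKM in SL deleted and 0.0163 to 0.0829 in SL floxed. No other marker of the 22 was at 0 in every 2i library.

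These stretches of promoter are shown because the report turns on the genes they precede, and because Cdkn2a has 2 starts that a single FPKM value pools. Each is the 250 bases before a RefSeq start on GRCm38.p6, 5′ to 3′, and capitals mark matches to motifs searched on both strands.
Mycn, chr12:12941837-12942086, minus strand: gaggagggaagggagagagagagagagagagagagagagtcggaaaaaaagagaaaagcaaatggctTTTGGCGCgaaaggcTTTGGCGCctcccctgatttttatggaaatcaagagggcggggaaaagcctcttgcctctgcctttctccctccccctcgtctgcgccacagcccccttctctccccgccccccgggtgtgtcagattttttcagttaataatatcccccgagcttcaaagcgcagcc
Ccnd3, start of the gene, chr17:47504801-47505050, plus strand: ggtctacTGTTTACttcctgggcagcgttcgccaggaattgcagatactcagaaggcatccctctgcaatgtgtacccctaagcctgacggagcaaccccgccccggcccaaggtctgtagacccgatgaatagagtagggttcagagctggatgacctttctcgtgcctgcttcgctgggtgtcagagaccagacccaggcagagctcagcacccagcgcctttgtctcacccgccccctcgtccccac
Cdkn2a, upstream start, chr4:89294620-89294869, minus strand: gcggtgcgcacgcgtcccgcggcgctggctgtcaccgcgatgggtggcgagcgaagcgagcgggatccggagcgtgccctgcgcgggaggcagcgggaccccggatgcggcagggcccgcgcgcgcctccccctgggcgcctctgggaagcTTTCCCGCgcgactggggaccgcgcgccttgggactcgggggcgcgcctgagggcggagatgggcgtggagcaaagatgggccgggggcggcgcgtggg
Cdkn2a, downstream start, chr4:89282193-89282442, minus strand: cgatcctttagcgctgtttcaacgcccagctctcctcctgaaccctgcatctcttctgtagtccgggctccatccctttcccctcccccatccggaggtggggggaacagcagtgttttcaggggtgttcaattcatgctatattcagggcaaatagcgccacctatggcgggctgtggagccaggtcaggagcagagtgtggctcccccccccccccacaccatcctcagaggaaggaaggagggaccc
The letters searched were the E-box CACGTG, the E2F forms TTTCCCGC and TTTGGCGC, the TCF/LEF form CTTTGAT and the forkhead form TGTTTAC; none of these motifs contains another. Of the 10 genes, 6 had entries, with 8 windows of 300 bases (250 before and 50 after the start), and 4 (Myc, Ccnd1, Ccnd2 and Ccne2) were not in the promoter table. E2F letters occurred in the Mycn window, 183 and 168 bases before the start, and in the window of the upstream Cdkn2a start, which gives Arf, 99 bases before it. They were held by 1.56% of all 32851 windows. The forkhead letters occurred in 1 of the 8 windows, 243 bases before the upstream Ccnd3 start, against 3.65% of all windows. The window of the downstream Ccnd3 start, not printed here, held none of the letters searched, and the FPKM of Ccnd3 pools both starts. The E-box letters (7.15% of all windows) and the TCF/LEF letters (3.73%) were in 0 of the 8 windows. A match describes letters and not a bound site.

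The order of levels over the 6 groups differed from gene to gene (the plot of FPKM by library). The tables were scaled separately by the authors, so levels from different tables are set side by side here with no test. Mycn was the more abundant Myc gene in all 12 libraries. Mycn measured 100.04 and 113.7 FPKM in SL floxed, 79.4 and 98.2 in SL deleted, 101.3 and 96.4 in tetON Foxd3, 52.2 and 72.8 in WT, 22.3 and 27.2 in 2i labelled deleted, and 15.9 and 11.7 in 2i floxed. SL floxed overlapped tetON Foxd3, which overlapped SL deleted, and from there down each group stood apart from its neighbour. Myc measured 15.1 and 8.48 FPKM in SL floxed, 14.6 and 9.85 in SL deleted, 7.16 and 15.5 in WT, 3.54 and 7.60 in tetON Foxd3, 0.315 and 0.455 in 2i labelled deleted, and 0.158 and 0.228 in 2i floxed. All 4 serum groups of Myc overlapped with a neighbour in that order, whereas the 4 libraries in 2i lay below 1 FPKM. As a share of summed Myc and Mycn FPKM, Myc made up 10.01% in SL floxed and 12.3% in SL deleted, 14.8% in WT and 5.34% in tetON Foxd3, and 1.45% and 1.52% in the floxed and labelled deleted 2i groups (means of 2 libraries).

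**Figure D1:**
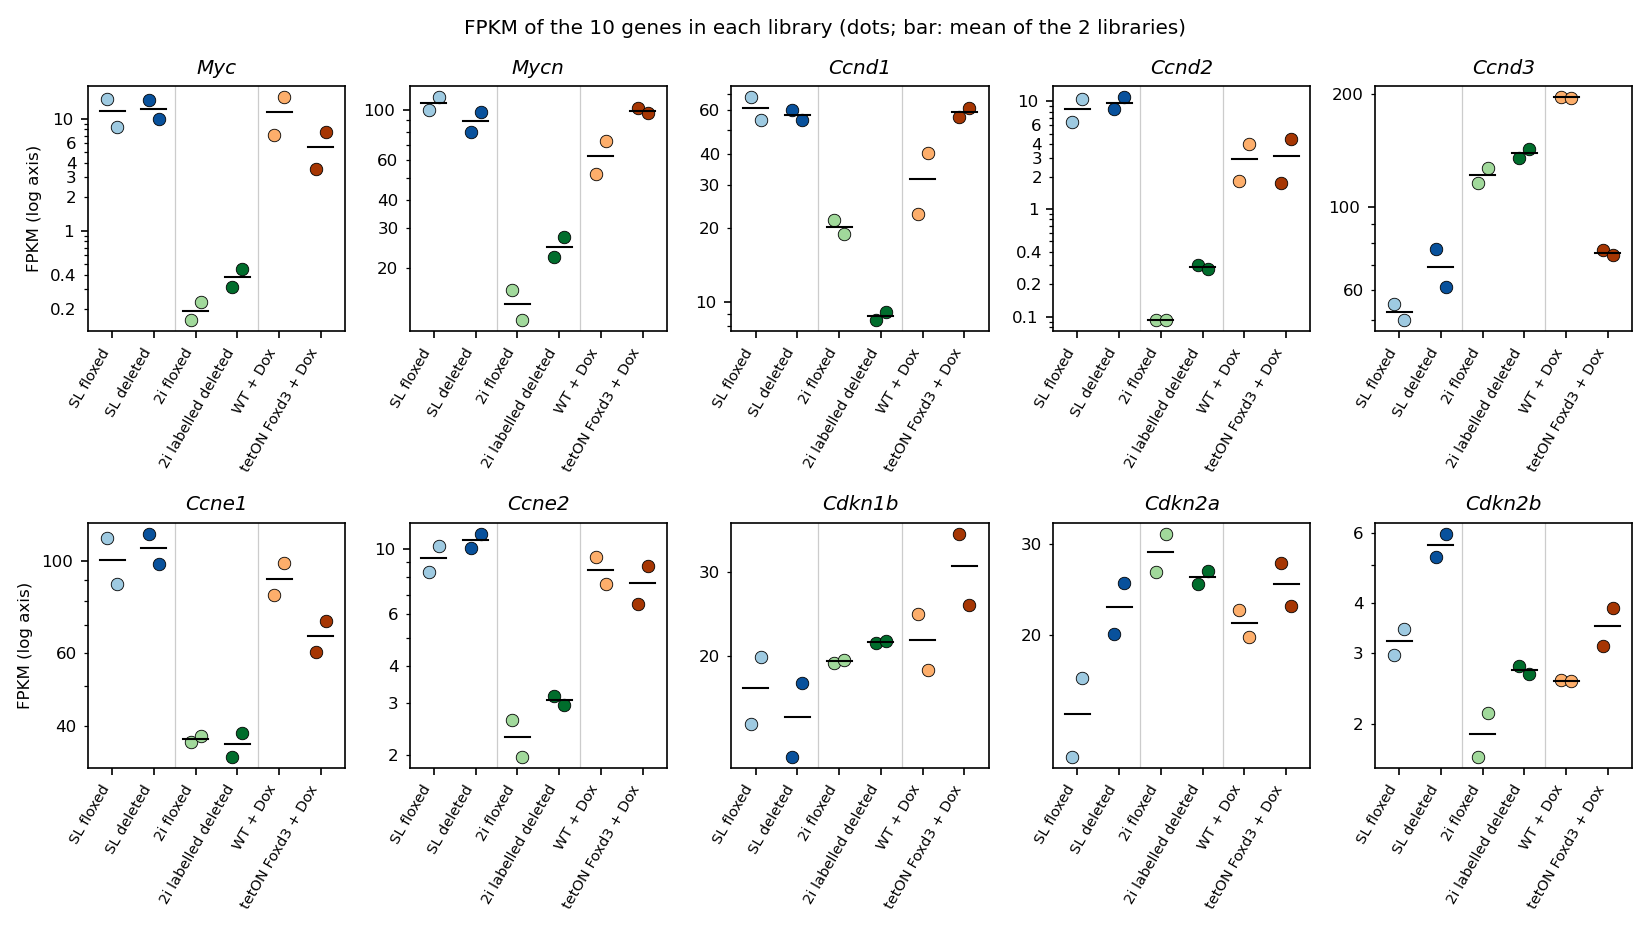
FPKM of each gene (log axis) in the 12 libraries, with dots for libraries and a bar for the mean of the 2 libraries of a group; grey lines separate the 3 deposited tables. Myc and Ccnd2 lie below 1 FPKM in all 4 libraries in 2i, and Ccnd3 is highest in WT, at 195.9 and 195.3 FPKM.

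The D-type cyclins divided the same family in different ways. Ccnd1, the cyclin best known as a growth factor target, measured 67.9 and 55.1 FPKM in SL floxed, 60.1 and 54.8 in SL deleted, 56.5 and 61.4 in tetON Foxd3, 22.7 and 40.4 in WT, 21.5 and 19.0 in 2i floxed, and 8.45 and 9.17 in 2i labelled deleted. Ccnd3 ran otherwise: it measured 195.9 and 195.3 FPKM in WT, 135 and 143 in 2i labelled deleted, 116 and 127 in 2i floxed, 76.5 and 74.2 in tetON Foxd3, 77.3 and 61.3 in SL deleted, and 55.1 and 49.8 in SL floxed. Ccnd2 was the least abundant D-type cyclin in every library, at 6.38 to 10.9 FPKM in SL, 1.74 to 4.46 in the doxycycline groups, and 0.0927 to 0.301 in 2i. Within a library the share of each cyclin does not depend on scaling. Ccnd1 made up 50.1% of the summed D-type cyclin FPKM in SL floxed, 42.2% in SL deleted and 42.9% in tetON Foxd3, but 14.3% in 2i floxed, 13.6% in WT and 5.95% in 2i labelled deleted (means of 2 libraries). Ccnd3 took 42.9%, 50.6% and 54.9% in the first 3 of these groups and 85.6%, 85.2% and 93.9% in the others. The family sum was 122 to 148 FPKM on average in 5 groups and 230 FPKM in WT.

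**Figure D2:**
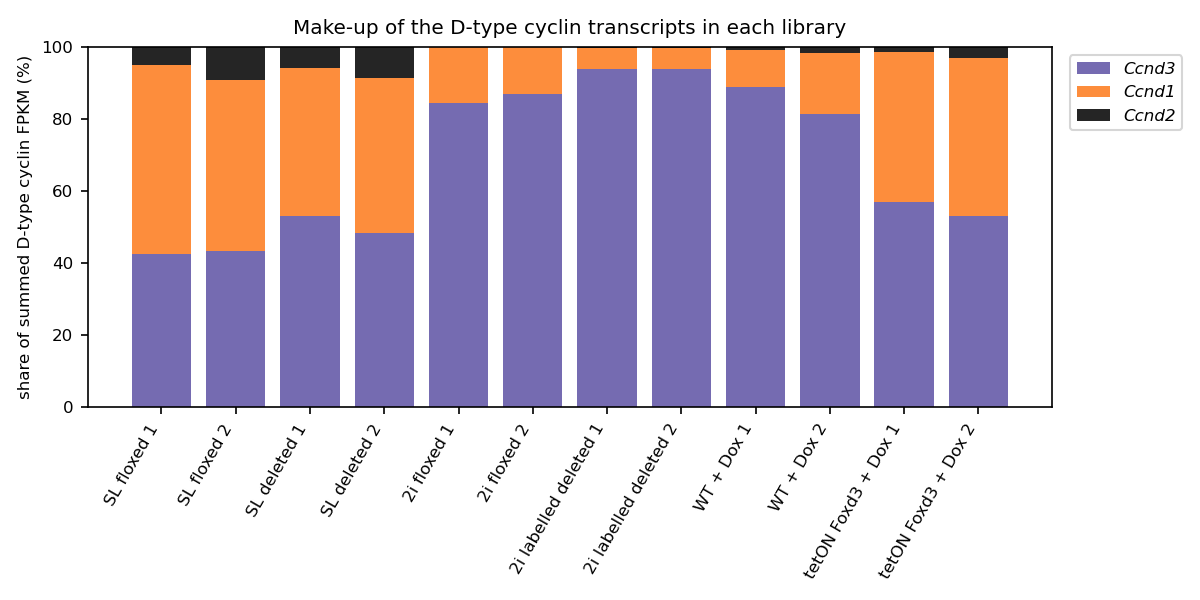
Share (%) of Ccnd3, Ccnd1 and Ccnd2 in the summed D-type cyclin FPKM of each of the 12 libraries, stacked to 100%. Ccnd3 is the largest part in every group except SL floxed, with group means of 85.2% to 93.9% in WT and in 2i. Ccnd1 is the largest part in SL floxed (50.1%) and reaches 42.2% in SL deleted and 42.9% in tetON Foxd3.

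Of the E-type cyclins, Ccne1 gave 89.7% to 94.2% of the family's summed FPKM as group means. Ccne1 measured 113 and 87.7 FPKM in SL floxed, 116 and 98.3 in SL deleted, 82.6 and 98.6 in WT, 60.4 and 71.6 in tetON Foxd3, 36.6 and 38.0 in 2i floxed, and 33.8 and 38.6 in 2i labelled deleted. The 2i libraries were thus the lowest for Ccne1, with no overlap with any serum library. Ccne2 ranged from 6.53 to 11.2 FPKM over the 8 serum libraries and from 1.98 to 3.18 FPKM in 2i. Among the inhibitors, Cdkn1b measured 14.4 and 19.9 FPKM in SL floxed, 12.3 and 17.5 in SL deleted, 19.4 and 19.7 in 2i floxed, 21.3 and 21.6 in 2i labelled deleted, 24.6 and 18.7 in WT, and 36.1 and 25.6 in tetON Foxd3. Cdkn2a measured 11.6 and 16.5 FPKM in SL floxed, 20.1 and 25.2 in SL deleted, 26.5 and 31.5 in 2i floxed, 25.2 and 26.6 in 2i labelled deleted, 22.4 and 19.8 in WT, and 27.6 and 22.7 in tetON Foxd3. Cdkn2b, its neighbour on chromosome 4, was lower throughout, at 2.97 and 3.46 FPKM in SL floxed, 5.22 and 5.98 in SL deleted, 1.65 and 2.13 in 2i floxed, 2.79 and 2.66 in 2i labelled deleted, 2.564 and 2.562 in WT, and 3.13 and 3.90 in tetON Foxd3. In these side by side levels, all 4 libraries in 2i lay below all 8 serum libraries for Myc, Mycn, Ccnd1, Ccnd2, Ccne1 and Ccne2, and this held for none of Ccnd3, Cdkn1b, Cdkn2a and Cdkn2b. For Ccnd1 the gap was narrow, 21.5 FPKM in a 2i floxed library against 22.7 in a WT library. The share of all genes with this order was not counted, so it is not read as particular to these members. The tables were also scaled separately.

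In serum, the deletion comparison gave no member past the threshold. Each comparison was tested with limma on log2(FPKM + 1) over all genes whose mean reached 1 FPKM in either group, and a gene passed at an adjusted p under 0.05; differences on this scale understate the change of low genes. By limma, 0 of 10 members passed in SL, where 0.00832% of all genes did (1 of 12024). At an unadjusted p under 0.05, 3 of 10 were higher and 0 lower, against 6.07% and 3.05% of all genes, and 0 of 10 passed in the authors' deposited table with its p-values adjusted here (0.535% of its genes). Those 3 were the inhibitors Cdkn2b (log2 difference 0.65, SE 0.15, limma adjusted p = 0.247) and Cdkn2a (0.66, SE 0.20, limma adjusted p = 0.357), and Ccnd3 (0.39, SE 0.14, limma adjusted p = 0.472). As a ratio of mean FPKM, SL deleted was 1.74 times SL floxed for Cdkn2b and 1.61 times for Cdkn2a, with both deleted libraries above both floxed libraries. Mycn lay the other way (-0.27, SE 0.13, limma adjusted p = 0.656), and both of its deleted libraries were below both floxed libraries. The groups did not overlap for 4 of the 10 genes, against 37% of all genes tested. The remaining 6 genes had log2 differences between -0.19 and 0.21 with overlapping groups. Ccne1, for one, had an interval of -0.27 to 0.47.

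Fibroblast and trophoblast markers leaned higher in the SL deleted libraries, though 0 of those tested passed limma's adjusted threshold. Of the 22 fibroblast markers, 17 had both SL deleted libraries above both floxed ones and 0 had them below. Of all genes tested, 19.7% and 17.3% did. At an unadjusted p under 0.05, 14 of 19 tested markers were higher, against 6.07% of all genes, and 0 of 19 passed the adjusted threshold. The trophoblast markers summed to 303 and 259 FPKM in SL deleted and to 191 and 154 in SL floxed. Their part in the values of Cdkn2a, Cdkn2b and Ccnd3 was not tested. In bulk RNA, fewer cells of a type and less RNA per cell cannot be told apart.

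In 2i, Mycn rose and Ccnd1 fell in the libraries labelled deleted, against a broad background of calls. Of the 8 members tested there, 5 passed limma (62.5%), where 67.6% of all 11637 genes did. The 4 higher members stood beside 47.9% of genes called higher, and the 1 lower member beside 19.7% called lower, so the count of members was near that of all genes. Myc and Ccnd2, with group means under 1 FPKM, were not tested. The groups did not overlap for 6 of the 8 tested members, against 85.3% of all genes. The median log2 difference over all genes was itself 0.19, and after median-of-ratios scaling it was -0.01. With that scaling 1 member passed as higher and 3 as lower, against 30.5% and 33.5% of all genes.

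Mycn measured 22.3 and 27.2 FPKM in the libraries labelled deleted and 15.9 and 11.7 in 2i floxed. Both libraries of one group were above both of the other, 1.79 times in mean FPKM. The log2 difference was 0.81 (SE 0.14, limma adjusted p = 0.000999) and stayed past the threshold after scaling (0.59, limma adjusted p = 0.00704). The authors' deposited table lists Mycn 1.51-fold higher, and that p-value adjusted here was 0.0339, 1 of 6 of the 10 members past 0.05 there, against 40.8% of its genes. Myc, at 20.04 mean reads against 12.36 in the authors' deposited table, had an adjusted p of 0.461 there.

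Ccnd1 measured 8.45 and 9.17 FPKM in the libraries labelled deleted and 21.5 and 19.0 FPKM in 2i floxed. Both libraries labelled deleted lay below both floxed libraries, and the floxed mean was 2.29 times the other. The log2 difference was -1.11 (SE 0.09, limma adjusted p = 2.6e-05), and -1.32 after scaling (limma adjusted p = 3.09e-05). In the authors' deposited table Ccnd1 is listed at a fold of -2.69. Its partner gene in the family, Ccnd3, had a log2 difference of 0.19 (SE 0.06, limma adjusted p = 0.0189), equal to the median of all genes, and -0.03 after scaling (limma adjusted p = 0.674). That call was lost without the second library labelled deleted (limma adjusted p = 0.107) or the first floxed library (limma adjusted p = 0.0894). Ccnd2 went from 0.0927 and 0.0934 FPKM in 2i floxed to 0.301 and 0.280, a low level at which the authors' deposited table lists 50.62 mean reads against 18.46 (fold 2.54, p-value adjusted here 0.00396). When no filter was set on low values, Ccnd2 (0.24, limma adjusted p = 0.00368) and Myc (0.21, limma adjusted p = 0.0422) were called higher, and Ccnd3, Ccne2 and Cdkn2b no longer passed (limma adjusted p = 0.0505, 0.117 and 0.0521).

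Ccne2 (log2 difference 0.31, SE 0.12, limma adjusted p = 0.0498) and Cdkn2b (0.37, SE 0.11, limma adjusted p = 0.0178) were called higher in 2i labelled deleted. Neither passed after scaling (0.14 with limma adjusted p = 0.319, and 0.22 with limma adjusted p = 0.135). Ccne2 was lost without either library labelled deleted or without the second floxed library (limma adjusted p from 0.0847 to 0.256). Cdkn2b was lost without the first library labelled deleted (limma adjusted p = 0.0724) or the first floxed library (limma adjusted p = 0.0801). Ccne1 (-0.05, limma adjusted p = 0.601) and Cdkn2a (-0.15, limma adjusted p = 0.143) did not pass as deposited, and both were called lower after scaling, at -0.26 (limma adjusted p = 0.0124) and -0.37 (limma adjusted p = 0.00807). Cdkn2a was also called lower without the first floxed library (limma adjusted p = 0.00964). Cdkn1b had a difference of 0.13 (SE 0.07, limma adjusted p = 0.113) that turned to -0.09 after scaling (limma adjusted p = 0.258). The authors' deposited table lists Ccne1, Cdkn1b and Cdkn2a lower (folds of -1.21, -1.29 and -1.33), each past 0.05 when its p-values were adjusted here.

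Markers of cell state were also among the genes called in 2i. Of all genes there, 47.9% were called higher and 19.7% lower (30.5% and 33.5% after scaling). Of the primitive endoderm markers, 4 of 4 tested were called higher (3 of 4 after scaling), with summed levels of 21.9 and 22.7 FPKM in the libraries labelled deleted and 15.2 and 14.9 in 2i floxed. Of the 8 embryonic stem cell markers, 4 were called higher (50%, near the share of all genes) and 0 lower (3 and 1 after scaling). Among the 4 were Zfp42 (1.14, limma adjusted p = 9.31e-06), Nanog (0.95, limma adjusted p = 4.02e-06) and Sox2 (0.76, limma adjusted p = 0.000101). The fibroblast markers had 6 of 10 tested called higher and 2 lower (6 and 3 after scaling). The neural progenitor markers had 2 of 3 higher and 0 lower (1 and 0 after scaling), and the trophoblast markers 1 of 4 and 0 (1 and 2 after scaling). Their part in the values of Mycn and Ccnd1 was not tested.

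Ccnd3 was lower in the tetON Foxd3 line than in WT, which is a separate line. It measured 76.5 and 74.2 FPKM in tetON Foxd3 against 195.9 and 195.3 FPKM in WT, so that the WT mean was 2.60 times the other and the spread within groups was small beside the gap. The log2 difference was -1.36 (SE 0.08, limma adjusted p = 0.0113), and the authors' deposited table lists a fold of -2.66. It was 1 of 10 members called, against 2.64% of the 11972 genes tested, and 1.65% called lower. With no filter on low values, where no gene passed, its limma adjusted p was 0.0558. Ccnd1 and Mycn lay the other way without passing. Ccnd1 had 56.5 and 61.4 FPKM against 22.7 and 40.4 (log2 difference 0.93, SE 0.26, limma adjusted p = 0.125). Mycn had 101.3 and 96.4 FPKM against 52.2 and 72.8 (0.67, SE 0.16, limma adjusted p = 0.0977), and passed in the authors' deposited table with p-values adjusted here (fold 1.55, adjusted p = 0.0363), where Ccnd3 made 2 of 10 members, against 4.55% of its genes. Both of their tetON Foxd3 libraries were above both WT libraries, and both passed when the second WT library, the higher of the pair for each gene, was left out (limma adjusted p = 0.0283 for Ccnd1 and 0.0497 for Mycn).

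Some markers of cell state were called in this comparison too, where 0.994% of all genes were called higher and 1.65% lower. Of the neural progenitor markers, 2 of 4 tested were called higher and 0 lower. Nes was at 5.77 to 8.41 FPKM in tetON Foxd3 against 1.11 to 1.56 in WT (log2 difference 1.78, limma adjusted p = 0.0298), and Sox1 at 5.31 to 5.45 against 2.04 to 2.31 (1.007, limma adjusted p = 0.0421). Of the 8 embryonic stem cell markers, 0 were called higher and 2 lower, Dppa5a (-1.37, limma adjusted p = 0.0177) and Nanog (-0.48, limma adjusted p = 0.0497). The calls of Sox1 and Nanog were lost without any 1 of the 4 libraries, and that of Nes without either WT library (limma adjusted p = 0.0928 and 0.0587). Of the fibroblast, primitive endoderm and trophoblast markers, 0 passed limma. At an unadjusted p under 0.05 there were 3 of 10, 1 of 5 and 1 of 5, against 20.8% of all genes. Their part in the values of Ccnd3, Ccnd1 and Mycn was not tested.

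The other members did not pass with overexpression. Ccne1 was lower in both tetON Foxd3 libraries than in either WT library (log2 difference -0.45, SE 0.13, limma adjusted p = 0.138), while Cdkn1b (0.48, SE 0.21, limma adjusted p = 0.27), Cdkn2b (0.34, SE 0.16, limma adjusted p = 0.32) and Cdkn2a (0.24, SE 0.14, limma adjusted p = 0.395) were higher in both. The groups overlapped for Myc (-0.89, SE 0.43, 95% interval -1.98 to 0.19). Groups did not overlap for 7 of the 10 genes, against 52.3% of all genes tested. The groups are separate lines, so the line and the induction of Foxd3 cannot be told apart. Ccnd3 overlaps Bysl, a ribosome assembly gene on the opposite strand, and whether the authors counted by strand is not stated. Bysl measured 20.6 and 24.3 FPKM in tetON Foxd3 and 26.1 and 32.5 in WT, levels well under those of Ccnd3. Opposite-strand genes also overlap Ccnd1 (Oraov1), Ccne2 (Ints8) and Ccnd2 (a pair of antisense genes), and reads of such pairs cannot be told apart without strand.

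**Figure D3:**
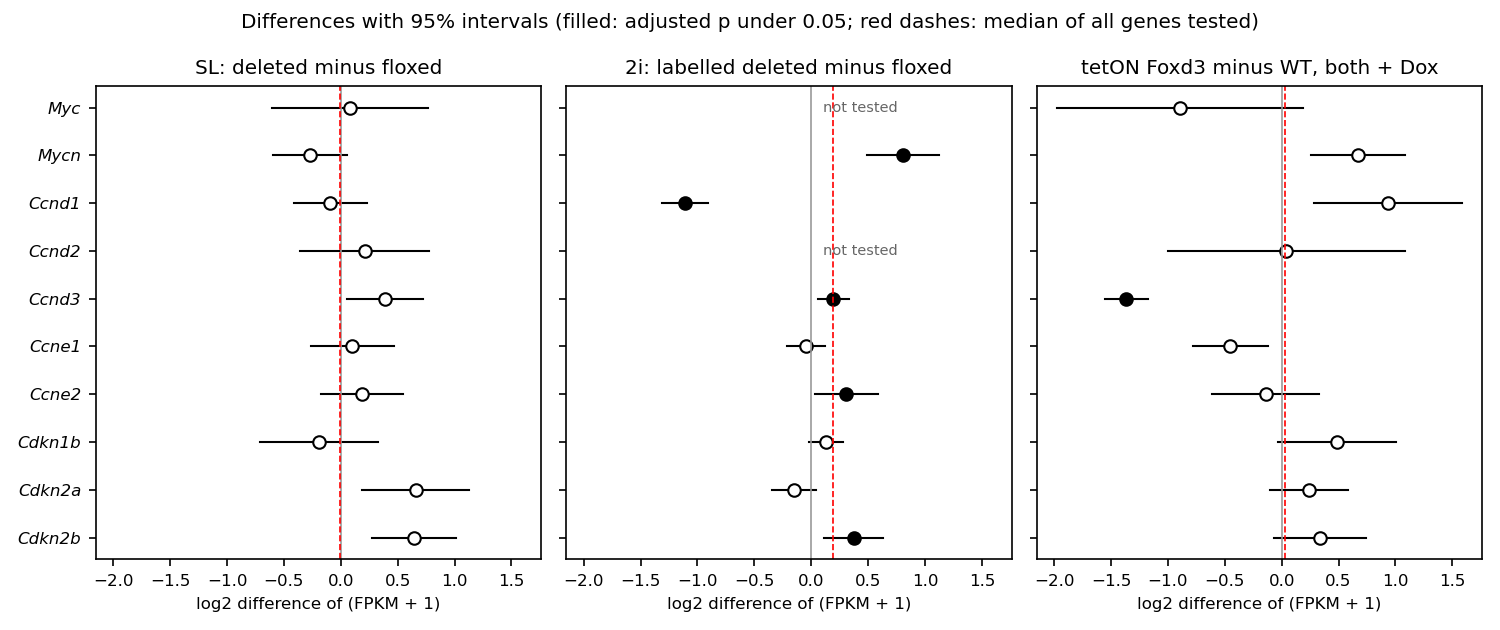
Log2 difference of FPKM + 1 for each gene in the 3 comparisons, with 95% intervals from limma; filled points have an adjusted p under 0.05 and the red dashes mark the median of all genes tested. Ccnd1 at -1.11 and Mycn at 0.81 in 2i, and Ccnd3 at -1.36 with overexpression, lie farthest from the median among the filled points.

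The responses to the deletion treatment were then compared between media, as the 2i log2 difference minus the SL log2 difference over 8 libraries. Of the 10 members, 3 passed limma, against 23.9% of 12497 genes. The difference for Mycn was 1.08 (SE 0.23, limma adjusted p = 0.0144): in 2i both labelled deleted libraries were above both floxed ones, and in SL both deleted libraries were below. For Ccnd1 it was -1.02 (SE 0.17, limma adjusted p = 0.00666), since its SL difference was -0.09. For Cdkn2a it was -0.81 (SE 0.24, limma adjusted p = 0.0402), from 0.66 in SL and -0.15 in 2i. After scaling these were 0.88, -1.22 and -1.02 (limma adjusted p = 0.0269, 0.00535 and 0.0198). Mycn missed the threshold without the second library labelled deleted (limma adjusted p = 0.069) or the second 2i floxed library (0.0595). Cdkn2a missed it without any 1 of 6 of the 8 libraries (limma adjusted p from 0.0541 to 0.151) and with no filter on low values (0.0826). Foxd3 itself differed between media by 0.97 (limma adjusted p = 0.0075), so the same treatment went with unequal Foxd3 responses. The other 7 members did not pass, and for Ccnd3 the interval of the difference was -0.56 to 0.17.

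Around these genes, lists of the pathway were counted in the same fits (the plot of pathway genes). In SL, 0 of the tested genes passed limma's adjusted threshold in any of the 7 pathway lists. At an unadjusted p under 0.05 the SL lists held 2 of 18 cyclins and Cdks, 2 of 6 Cdk inhibitors, 1 of 13 in the Rb and E2f family, 0 of 13 Myc network genes, 0 of 17 Myc targets, 1 of 19 E2f targets and 1 of 19 mitotic genes. Of all genes 9.12% were under 0.05 in either direction. The 2 inhibitors were the members Cdkn2a and Cdkn2b, and 1 of the cyclins was the member Ccnd3, all counted above. Cdk1, the mitotic kinase, had -0.26 (limma adjusted p = 0.482), and E2f8, a repressor E2f, had 0.43 (limma adjusted p = 0.337). With overexpression, Ccnd3 was the 1 gene called in these lists. Mycl, the third Myc family gene, was just outside the threshold (1.25, SE 0.22, limma adjusted p = 0.0539; adjusted p = 0.0255 in the authors' deposited table, adjusted here), at 7.99 and 12.2 FPKM in tetON Foxd3 against 3.34 and 3.86 FPKM in WT as lowest and highest values. Mxd3, a repressive Max partner, had -0.86 (limma adjusted p = 0.0703) and Cdk6, a D-cyclin kinase, had -0.75 (limma adjusted p = 0.0946).

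The counts of the lists in 2i stand beside 47.9% of all genes called higher and 19.7% called lower (30.5% and 33.5% after scaling). Myc target genes were more often called lower than higher in the libraries labelled deleted. Of 17 Myc targets tested, 9 fell and 1 rose, with a median log2 difference of -0.18 against 0.19 for all genes (15 fell and 0 rose after scaling, median -0.40 against -0.01). Srm, the spermidine synthase, measured 80.6 to 89.1 FPKM against 171 to 181.4 in 2i floxed (-1.05, SE 0.06, limma adjusted p = 7.13e-06). Odc1, which starts polyamine synthesis, measured 95.02 to 103.2 FPKM against 160.2 to 160.7 (-0.69, limma adjusted p = 2.51e-05). The kinase Nme1, a nucleotide supplier, fell by 0.57 and the cap-binding factor Eif4e by 0.43 on the log2 scale (limma adjusted p = 0.000146 and 0.000194). In the Myc network list, which includes Mycn, 5 of 11 rose and 1 fell (4 and 2 after scaling), and the 45.5% that rose was near the share of all genes. Besides Mycn these included Mycl (0.81, limma adjusted p = 0.000473) and the repressive Max partners Mnt (0.55, limma adjusted p = 0.00493) and Mxd1 (0.45, limma adjusted p = 0.00368).

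E2f targets of S phase also leaned lower in 2i labelled deleted. Of 19 tested, 10 fell and 3 rose, with a median of -0.16 (14 and 0 after scaling, median -0.38). The member Ccne2, counted above, was 1 of the 3 that rose. The replicative helicase subunits Mcm6 (-0.42, limma adjusted p = 0.000144), Mcm2 (-0.39, limma adjusted p = 0.000211) and Mcm5 (-0.26, limma adjusted p = 0.00199) fell together with the DNA repair glycosylase Ung (-0.33, limma adjusted p = 0.000742). Of the mitotic genes, 7 of 19 were called higher and 3 lower (36.8% and 15.8%, both under the shares of all genes; 3 and 9 after scaling). The kinetochore genes Cenpe (0.67, limma adjusted p = 0.000249) and Cenpf (0.54, limma adjusted p = 0.000421) rose, whereas the topoisomerase Top2a (-0.56, limma adjusted p = 4.64e-05) and the ubiquitin conjugase Ube2c (-0.40, limma adjusted p = 0.00025) fell.

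Among 17 cyclins, Cdks and their regulators tested in 2i, 6 rose (35.3%) and 6 fell (35.3%), and 3 and 10 after scaling. Before scaling, Ccnd3 and Ccne2 were among those that rose and Ccnd1 among those that fell, all members counted above. Fbxw7, which marks cyclin E and Myc proteins for destruction, rose from 4.86 to 5.48 FPKM in 2i floxed to 8.43 to 8.65 FPKM (0.63, limma adjusted p = 0.000539), and the anaphase complex inhibitor Fbxo5 rose by 0.43 (limma adjusted p = 0.000501). Cks1b, a Cdk subunit, fell by 0.46 (limma adjusted p = 0.000138). Of 7 Cdk inhibitors, 2 rose (28.6%) and 2 fell (28.6%), and 1 and 3 after scaling. The member Cdkn2b, counted above, was 1 of the 2 that rose. Cdkn2c (p18) rose (0.72, limma adjusted p = 0.000312) from a mean of 0.714 to 1.82 FPKM, passing the filter through the labelled deleted group alone, while the abundant Cdkn1a (p21) went from 116 to 123 FPKM down to 95.72 to 98.98 (-0.29, limma adjusted p = 0.0014) and Cdkn1c (p57) fell by 0.52 (limma adjusted p = 0.00236). In the Rb and E2f family, 7 of 13 rose (53.8%) and 2 fell (15.4%), near the shares of all genes, and 4 and 3 after scaling. Rb1 (0.45, limma adjusted p = 0.00268), E2f8 (0.69, limma adjusted p = 0.00269) and E2f6 (0.52, limma adjusted p = 0.000592) rose, and E2f5 fell by 0.33 (limma adjusted p = 0.00102). Each direction given here for a gene outside the 10 held after scaling.

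**Figure D4:**
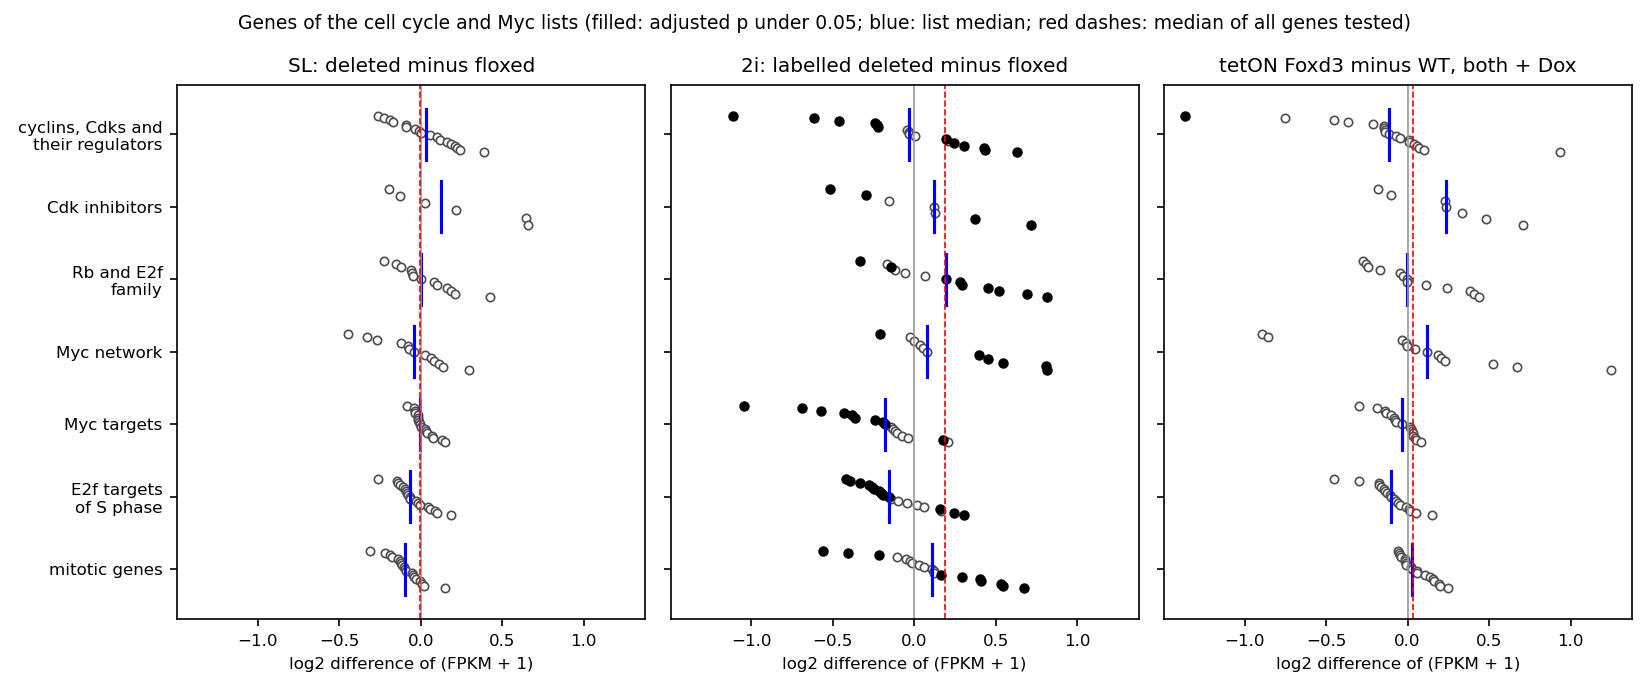
Log2 difference of FPKM + 1 for the tested genes of each pathway list in the 3 comparisons; each dot is a gene, and filled dots have an adjusted p under 0.05. In 2i the Myc targets have a median of -0.18 and the E2f targets a median of -0.16, against 0.19 for all genes.

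Between media, 18.4% of all genes had a more positive response in 2i than in SL and 5.55% a more negative one. Of 13 Myc network genes, 4 had a more positive response in 2i than in SL and 0 a more negative one (3 and 1 after scaling, with a median of -0.11): Mycn, Mycl (1.26, limma adjusted p = 0.034), Mxi1 (0.72, limma adjusted p = 0.0219) and Mnt (0.63, limma adjusted p = 0.0476). Of 17 Myc targets, 4 had a more negative response in 2i and 0 a more positive one (6 and 0 after scaling, with a median of -0.44). These 4 were Srm (-1.08, limma adjusted p = 0.015), Odc1 (-0.73, limma adjusted p = 0.00382), Eif4e (-0.34, limma adjusted p = 0.0392) and the nucleolar protein gene Ncl (-0.37, limma adjusted p = 0.0455). Of 7 Cdk inhibitors, 1 was more positive in 2i and 2 more negative, with the same counts after scaling. The 1 was Cdkn2c (0.61, limma adjusted p = 0.0243), with means of 0.495 FPKM in SL deleted and 0.388 in SL floxed. Besides the member Cdkn2a, Cdkn1a was more negative (-0.51, limma adjusted p = 0.0113), with 0.22 in SL (limma adjusted p = 0.608) and a fall in 2i. Of 19 E2f targets, 0 were more positive and 1 more negative, Mcm2 (-0.31, limma adjusted p = 0.0421), and 0 and 6 after scaling. After scaling, Mnt no longer passed (0.43, limma adjusted p = 0.129), nor did Aurkb, Cenpe, Cenpf and Plk1, the 4 mitotic genes that had passed as more positive in 2i (limma adjusted p from 0.0617 to 0.215). Top2a (-0.66, limma adjusted p = 0.0145) and Ube2c (-0.48, limma adjusted p = 0.0147), named after their values were seen, then passed as more negative, so the mitotic list went from 4 and 0 to 0 and 2.

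The genes whose profile was most like that of a member were found over the 12 libraries, centred on the mean of each table, among 10926 genes. The points share tables and scaling, and the correlations are given as a description. Mycn was followed most closely by Sall1 (Pearson's r = 0.98) and Dos (0.98). Ccnd1 was followed by Pcbp2 (0.96), Mmgt1 (0.95) and Smarcd1 (0.95). Myc was followed by Bysl (0.95), Myl12a (0.94) and Psmd12 (0.94), and since Myc was below 1 FPKM in 2i this order rests on the 8 serum libraries. In SL, Myc differed more within groups (15.1 and 8.48 FPKM in SL floxed, 14.6 and 9.85 in SL deleted) than between their means (11.8 and 12.2). Its correlations thus also follow the spread between replicates.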

How the data were processed

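RNA was measured in 12 libraries. Per the file headers, the authors deposited FPKM per library and gene, a mean read signal per group, a signed fold score and a p-value rounded to 6 decimals. The submitters' processing notes name FastQC, TopHat2, SAMtools, Cufflinks, DESeq2 and GRCm38/mm10; their versions: not given in the sources used here. Members were matched by symbol and coordinates by GENCODE M21; promoters come from RefSeq (GRCm38.p6). Log2(FPKM + 1) was fitted per table, over genes whose mean reached 1 FPKM in a group, with limma 3.58.1 (R 4.3.3, trended, 2 residual degrees of freedom), adjusted by Benjamini and Hochberg, and tested on simulated data. An exact test of 2 against 2 cannot give a p under 0.3333. The deposited p-values were adjusted here as an alternative. All members were named, and of each list up to 4 genes per comparison by adjusted p. Members and lists were chosen with earlier results of these data known. List genes without a row of their own symbol, Cdk4 and Ccnb1 among them, were not used here, and 1 correlated gene is not reported here.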

Additional observations from a re-analysis of the deposited data

Results flagged for a closer look

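For 3 of the 10 members, and for Foxd3, the limma test of the difference between media passed (2i log2 difference minus SL log2 difference). Of all 12497 genes, 23.9% passed the same test, so the count of members was near that of all genes. Mycn differed by 1.08, Ccnd1 by -1.02, Cdkn2a by -0.81 and Foxd3 by 0.97. As given above, the calls of Mycn and Cdkn2a were lost when some single libraries were left out. The media also differ in serum (15% in SL, 0% in 2i) and in basal medium, and the 2i protocol names no feeders. Serum, basal medium and feeders cannot be told apart from the inhibitors.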

How the results depend on the processing

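Replicate numbers 1 and 2 are shared between groups, but nothing in the labels ties equal numbers to one culture; deviations of same-numbered libraries correlated at 0.605 in SL, -0.0539 in 2i and 0.596 in overexpression. With a replicate block, called genes went from 1 to 1997 in SL, from 316 to 2473 in overexpression and from 2987 to 5342 for the difference between media, and called members from 0 to 4 in SL (Mycn, Ccnd3, Cdkn2a and Cdkn2b) and from 1 to 6 in overexpression (Myc, Mycn, Ccnd1, Ccne1 and Cdkn1b beside Ccnd3). With all 12 libraries in 1 fit, 198 genes were called in SL and 1746 in overexpression, with 1, 3 and 3 members in SL, 2i and overexpression. The authors' p-values adjusted here called 107 and 909 genes and, in overexpression, 2 members. A mean of at least 5 FPKM left 3 members called in 2i, and no filter left 0 genes and 0 members in overexpression, where limma gave 3232 genes and 4 members at an unadjusted p under 0.05. Leaving out each library gave 1 to 313 genes in SL, 42 to 342 in overexpression and 683 to 3761 between media, and 3 to 4 members in 2i, 1 to 3 in overexpression and 1 to 3 between media; the lone library left in a group is assumed to vary like the others. These counts moved by over 1.5 times in SL without SL deleted 1 (74), SL deleted 2 (313) or SL floxed 2 (12), in overexpression without tetON Foxd3 1 (144), WT 1 (42) or WT 2 (90; 3 members), and between media without 2i labelled deleted 1 (1098), 2i labelled deleted 2 (683; 1 member), 2i floxed 1 (1728), 2i floxed 2 (896; 1 member) or SL deleted 1 (1947); in 2i, 3 members were called without either library labelled deleted. In 2i, Ccnd3 turned to -0.031 after scaling and -0.014 in the authors' table, Cdkn1b to -0.085 and -0.37, and Ccne2 (authors' table) to -0.11; Foxd3 was 0.77 there. Between media Ccne2 was -0.028 after scaling. Over left-out libraries the log2 difference spanned 0 in SL for Myc (-0.30 to 0.46), Ccnd1 (-0.24 to 0.057), Ccnd2 (-0.11 to 0.53), Ccne1 (-0.083 to 0.28) and Cdkn1b (-0.43 to 0.046), in 2i for Ccne1 (-0.14 to 0.048), in overexpression for Ccnd2 (-0.46 to 0.54) and Ccne2 (-0.33 to 0.048), and between media for Myc (-0.25 to 0.52), Ccnd2 (-0.29 to 0.35), Ccne1 (-0.33 to 0.037) and Ccne2 (-0.023 to 0.27). The cause of these changes was not tested. Summed mean reads were lower in both 2i groups than in the serum groups, but they are group means on the authors' scaling. Depth of single libraries is unknown, so limits for low genes such as Myc and Ccnd2 in 2i cannot be given.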
